A study of Mus musculus with 28 samples.

Results

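The mitochondrially encoded mRNAs are the messages read from the DNA that mitochondria keep for themselves. They were taken here as the rows of the count tables whose Ensembl ID maps to mt-Nd1, mt-Nd2, mt-Nd4, mt-Nd5, mt-Nd6, mt-Cytb, mt-Co1, mt-Co2, mt-Co3 or mt-Atp6, which made 10 genes of 56951 in either table. The table of experiment 1 has a row for 7 of the 10 and the table of experiment 2 for 10 of the 10. The same 7 (mt-Nd1, mt-Nd2, mt-Nd4, mt-Nd5, mt-Nd6, mt-Cytb and mt-Co1) passed the filter on low counts in both experiments.

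Messenger RNA was sequenced from primary mouse bone marrow-derived macrophages, phagocytes grown from marrow, in 28 libraries. Experiment 1 held Irgm_IFNAR-KO cells, labelled as lacking Irgm1 and the type I interferon receptor, Irgm1-KO cells and WT cells, with no agent named. Experiment 2 held Irgm1KO_fenofibrate, Irgm1KO_control, WT_fenofibrate and WT_control cells, and fenofibrate, an activator of the nuclear receptor PPAR alpha, was used at 50 µM. Each of the 7 groups has 4 libraries. Every group came from male and female mice 2 to 4 months old on the C57BL/6 background, had 6 days of culture in medium conditioned by L929 cells and then 24 h without that supplement. The labels name no promoter or Cre for the mutant alleles, no group lacks the receptor alone, and neither the length of the fenofibrate exposure nor what control cells received is given. Whether the 4 libraries of a group came from different animals is not stated, and the tests below see only library-to-library spread, which may be technical.

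Mammalian mitochondrial DNA encodes subunits of respiratory complexes I, III, IV and V, together with the ribosomal and transfer RNAs that mitochondria need to translate them. Its heavy and light strands are each copied as long precursors that are cut into single RNAs, so the messages of a strand start from shared transcripts. The other subunits of these complexes, the polymerase, the RNA-processing enzymes and the mitochondrial ribosomal proteins are encoded in the nucleus.

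Nuclear chromosomes carry old copies of mitochondrial DNA. Of the 10 messages listed, the 3 with next to no counts here are those with an exact copy along nearly their whole length. Outside the list, mt-Nd3, mt-Nd4l and mt-Atp8 also had next to no counts in experiment 2. They were not compared with nuclear copies. In GENCODE M21 transcripts (GRCm38, an earlier build than the GRCm39 of the count tables, so no coordinates are given), the pseudogene Gm10925 on chromosome 1 matches mt-Atp6 over 678 of its 681 bases with no mismatch. Gm28661 matches mt-Co2 over 681 of 684 bases, and Gm28437 matches mt-Co3 over 783 of 784 bases, also with no mismatch. The first 90 bases of mt-Atp6 and of its nuclear copy are shown because a read from either would be the same.
mt-Atp6: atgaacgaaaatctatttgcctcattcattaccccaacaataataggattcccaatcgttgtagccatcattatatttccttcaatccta
Gm10925: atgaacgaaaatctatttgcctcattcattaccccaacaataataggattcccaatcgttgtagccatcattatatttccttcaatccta

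For comparison, mt-Cytb and its closest nuclear copy Gm11410 on chromosome 4 (92.9% identity over 1142 bases) differ at 5 of 90 bases from base 2 on. mt-Co1 and Gm13340 on chromosome 2 (97.6% identity over 1545 bases) differ at 3 of their first 90. Capitals mark the bases that differ within each pair.
mt-Cytb: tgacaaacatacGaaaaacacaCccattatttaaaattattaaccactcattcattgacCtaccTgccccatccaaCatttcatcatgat
Gm11410: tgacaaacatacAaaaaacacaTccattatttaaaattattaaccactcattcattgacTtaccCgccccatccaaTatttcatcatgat
mt-Co1: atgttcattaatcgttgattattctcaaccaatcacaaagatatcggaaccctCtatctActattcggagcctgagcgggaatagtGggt
Gm13340: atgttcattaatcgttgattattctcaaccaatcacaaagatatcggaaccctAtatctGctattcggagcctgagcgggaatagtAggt

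Of all 50-base windows in a message, the share found in no other GENCODE transcript was 100% for mt-Nd1, mt-Nd6 and mt-Cytb, 92.4% for mt-Nd5, 91.8% for mt-Nd2, 48.9% for mt-Co1 and 37.8% for mt-Nd4. It was 0.5% for mt-Atp6, 0.1% for mt-Co3 and 0.0% for mt-Co2. Those last 3 messages had next to no counts: in the libraries of experiment 2, mt-Co2 (a core subunit of complex IV) ranged from 0 to 5 counts, mt-Co3 (also of complex IV) from 0 to 3 and mt-Atp6 (a membrane subunit of complex V, the ATP synthase) from 0 to 2.

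By library, mt-Atp6 had 0, 1, 0 and 0 counts in Irgm1KO_fenofibrate, 1, 0, 0 and 0 in Irgm1KO_control, 0, 1, 1 and 2 in WT_fenofibrate and 2, 2, 0 and 2 in WT_control. Its nuclear copy was counted no more often than 11 times in any library of experiment 2. No fold is given for these 3 messages, and complex V has no measured member here. The handling of reads that match several places is not given in the sources used here, and its part in these counts was not tested. The 7 measured messages include 2 that share much sequence with nuclear copies, mt-Nd4 (the first 876 of 1378 bases equal to Gm28439) and mt-Co1, so their levels are less certain than those of the other 5.

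Total counts ran from 48.65 to 70.46 M (M, mega) per library in experiment 1 and from 82.36 to 120.84 M in experiment 2. The targeted genes were compared with the labels. Irgm1 was lower in the groups labelled knockout but still counted: it lay at 641 to 786 CPM (counts per M counts of the scaled library) in Irgm_IFNAR-KO and 628 to 839 CPM in Irgm1-KO, against 1188 to 1352 CPM in WT, and at 0.588 of the WT level in Irgm1-KO and 0.635 of the WT_control level in Irgm1KO_control by the fitted fold. Ifnar1 was at 114, 109, 53.1 and 108 CPM in Irgm_IFNAR-KO, 112 to 127 CPM in Irgm1-KO and 128 to 141 CPM in WT. Every Irgm_IFNAR-KO library lay below every WT library, and the group overlapped Irgm1-KO. In edgeR's test Ifnar1 did not pass against WT (fold 0.706, adjusted p = 0.119) or Irgm1-KO (fold 0.794, adjusted p = 0.178). The test thus does not set the libraries labelled Irgm_IFNAR-KO apart. What the mutant alleles delete is not given in the labels. All 10 macrophage markers had counts in every group.

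In Irgm1-KO macrophages the 7 measured messages were all lower than in WT, by 2.26-fold (mt-Nd6) to 4.16-fold (mt-Cytb). All 7 passed edgeR's quasi-likelihood test at an adjusted p below 0.05, where 20.7% of the 13998 genes tested were called lower. Their median log2 fold change was -1.65, beside -0.02 over all genes tested. In whole-culture RNA, fewer cells of a type and less RNA per cell cannot be told apart.

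mt-Nd1, a core membrane subunit of complex I, the NADH dehydrogenase, was at 375, 294, 329 and 304 CPM in the Irgm1-KO libraries, against 1163, 1158, 1084 and 1193 CPM in the WT libraries. The highest Irgm1-KO library lay far below the lowest WT library. The log2 fold change was -1.82 (SE 0.0831, adjusted p = 1.64e-08). mt-Nd6, the complex I subunit read from the light strand, was at 51.3, 42.9, 40.4 and 46.6 CPM in Irgm1-KO and at 114, 94.6, 86.5 and 114 CPM in WT. These groups did not overlap either, and the log2 fold change of -1.17 (SE 0.122, adjusted p = 1.14e-05) was the smallest of the 7. The other complex I messages, mt-Nd2, mt-Nd4 and mt-Nd5, are core membrane subunits too. mt-Nd2 lay at 200 to 232 CPM in Irgm1-KO and 654 to 734 CPM in WT, mt-Nd4 at 132 to 165 CPM in Irgm1-KO and 417 to 515 CPM in WT, and mt-Nd5 at 270 to 395 CPM in Irgm1-KO and 724 to 1131 CPM in WT. Their log2 fold changes were -1.71, -1.65 and -1.45.

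mt-Cytb, the cytochrome b core of complex III, was at 324, 271, 264 and 242 CPM in Irgm1-KO, against 1188, 1198, 1094 and 1096 CPM in WT. Its log2 fold change of -2.06 (SE 0.0907, adjusted p = 1.47e-08) was the largest of the 7. mt-Co1, the catalytic subunit of complex IV and the most abundant message per length, was at 3594, 3128, 3689 and 3423 CPM in Irgm1-KO and at 8172, 8666, 8462 and 7754 CPM in WT. Its log2 fold change was -1.26 (SE 0.0666, adjusted p = 4.47e-08). For all 7 messages no Irgm1-KO library reached any WT library, where 17.5% of genes tested had groups apart in that direction.

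**Figure D1:**
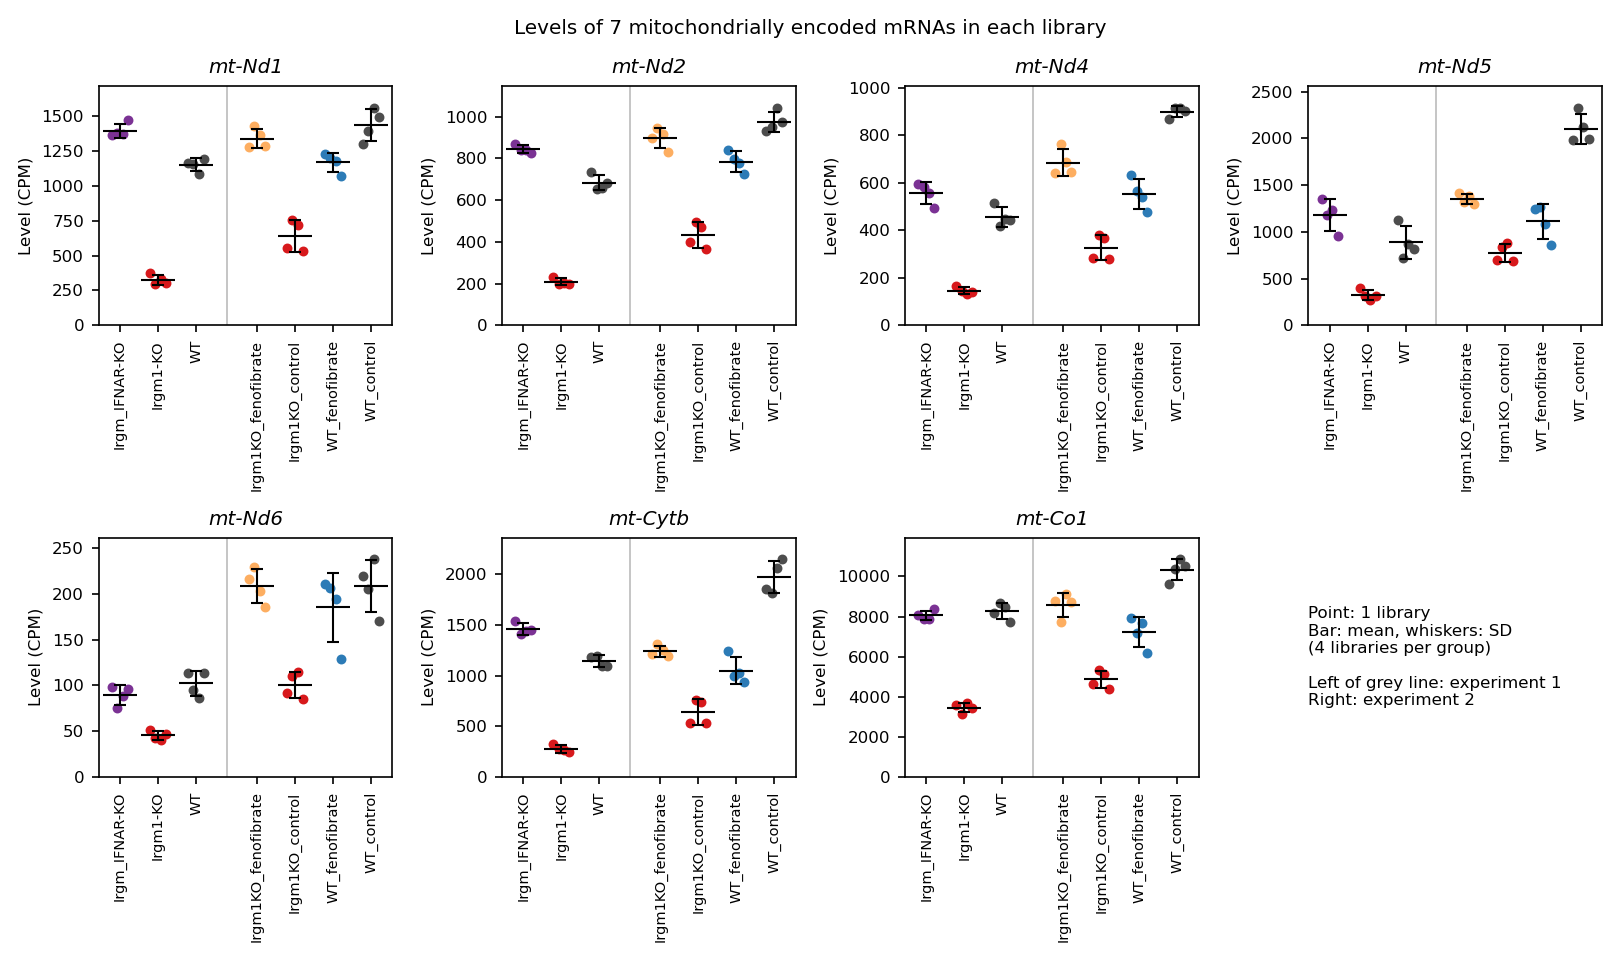
Level of each of the 7 measured messages in every library (points, CPM on a linear axis from 0), with the mean and SD of the 4 libraries of a group. Irgm1-KO lies lowest in experiment 1 and Irgm1KO_control lowest in experiment 2 in all 7 panels, and WT_control lies highest of its experiment by the mean for all but mt-Nd6, where Irgm1KO_fenofibrate and WT_control both average 208 CPM.

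Summed, the 7 messages took 0.474 ± 0.023% of library counts in Irgm1-KO and 1.25 ± 0.084% in WT (SD, n = 4 each), a ratio of 0.38. The loss was not in proportion. mt-Co1 made up 72.3 ± 2.15% of the 7 messages' counts in Irgm1-KO and 65.1 ± 2.06% in WT, while mt-Cytb made up 5.75 ± 0.566% in Irgm1-KO and 9.02 ± 0.287% in WT. Neither share overlapped between the groups. The shares of mt-Nd1 and mt-Nd2 were also lower in every Irgm1-KO library than in any WT library, and those of mt-Nd4, mt-Nd5 and mt-Nd6 overlapped.

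Levels between messages can be compared per length. In Irgm1-KO cells, mt-Co1 stood at 2238.5 ± 159 CPM per kb, mt-Nd1 at 340 ± 38, mt-Cytb at 241 ± 30.3, mt-Nd2 at 202 ± 14.9, mt-Nd5 at 178 ± 28.6, mt-Nd4 at 106 ± 10 and mt-Nd6 at 87.3 ± 9.19 CPM per kb. In WT the order was the same, with mt-Co1 at 5348.5 ± 256, mt-Nd1 at 1201 ± 48.3, mt-Cytb next with 1143.9 CPM over its 1144 bases, mt-Nd2 at 658 ± 34.8, mt-Nd5 at 487 ± 95.2, mt-Nd4 at 331 ± 30.6 and mt-Nd6 at 197 ± 26.6 CPM per kb. In Irgm1-KO the neighbours mt-Nd2 and mt-Nd5 lay within 1 SD of each other. The place of mt-Nd4 depends on its nuclear copy: per 1000 windows of 100 bases found in no other transcript it stood at 908 CPM in WT, above mt-Nd2 at 751 and mt-Nd5 at 515. By that measure mt-Co1 was still the highest in WT, at 8263 CPM.

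The Ifnar1 counts do not settle the receptor label of the libraries labelled Irgm_IFNAR-KO. In these libraries the 7 messages were all higher than in Irgm1-KO cells, by 1.98-fold (mt-Nd6) to 5.31-fold (mt-Cytb). All 7 passed, where 21.5% of genes were called higher, with a median log2 fold change of 1.94 beside 0.02 over all genes. The Irgm1-KO libraries serve both this comparison and the one above.

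mt-Nd1 was at 1364, 1376, 1368 and 1469 CPM in the Irgm_IFNAR-KO libraries, against 294 to 375 CPM in Irgm1-KO, or 2.10 higher on the log2 scale (SE 0.0839, adjusted p = 2.32e-09). mt-Nd6 was at 98.8, 74.8, 88.4 and 96.3 CPM, against 40.4 to 51.3 CPM (log2 fold change 0.98, SE 0.122, adjusted p = 4e-05). Both complex I messages were higher in every Irgm_IFNAR-KO library than in any Irgm1-KO library. mt-Cytb was at 1542, 1407, 1446 and 1453 CPM, against 242 to 324 CPM (log2 fold change 2.41, SE 0.0919, adjusted p = 1.64e-09). mt-Co1 was at 8092, 7903, 7902 and 8379 CPM in Irgm_IFNAR-KO, against 3128 to 3689 CPM in Irgm1-KO, which gave 1.22 on the log2 scale (SE 0.0666, adjusted p = 3.18e-08). The groups did not overlap for any of the 7, where 21.2% of genes tested had groups apart in that direction.

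Set against WT, the libraries labelled Irgm_IFNAR-KO had slightly more of some messages. mt-Nd1 (log2 fold change 0.28, SE 0.0807, adjusted p = 0.0419), mt-Nd2 (0.30, SE 0.0702, adjusted p = 0.0127) and mt-Cytb (0.35, SE 0.0873, adjusted p = 0.0188) passed, so 3 of 7 were called higher where 3.94% of genes were. mt-Nd4, mt-Nd5, mt-Nd6 and mt-Co1 did not pass, with log2 fold changes of 0.29, 0.41, -0.19 and -0.03. The 3 calls rest on few libraries: the number of messages called was 1 without WT replicate 3, without WT replicate 4 or without Irgm_IFNAR-KO replicate 3, and 0 without Irgm_IFNAR-KO replicate 1. For mt-Nd1, leaving out any of the 8 libraries ended the call (adjusted p between 0.0581 and 0.129). With log2 Xist as a covariate, since both sexes were used, 5 of 7 were called and 4258 genes in all, against 1702 without it. The pool also differed in make-up, with mt-Co1 at 59.3 ± 1.36% of the 7 messages' counts in Irgm_IFNAR-KO and mt-Cytb at 10.7 ± 0.241%, both outside the WT range.

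**Figure D2:**
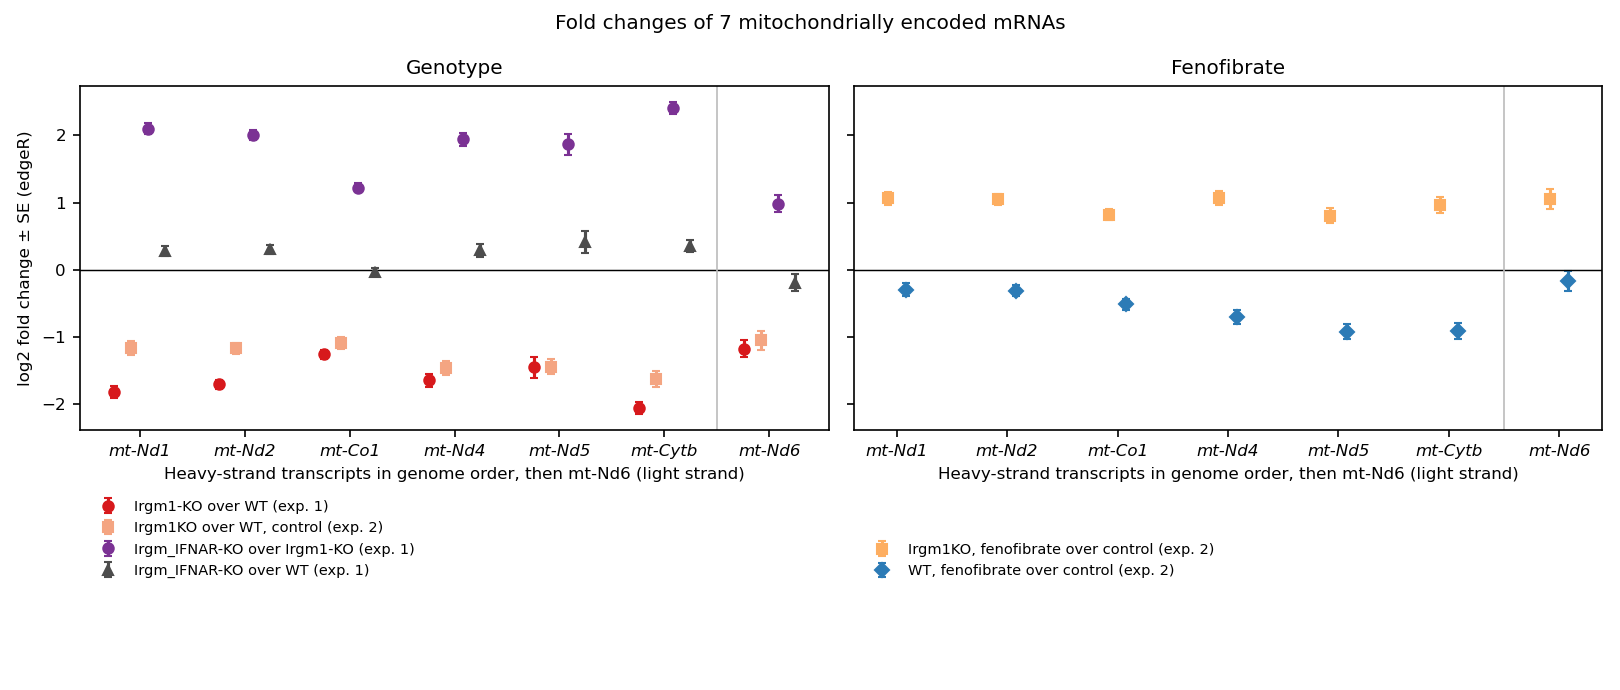
log2 fold change of each message with its standard error (edgeR), heavy-strand messages in genome order and mt-Nd6 of the light strand last; left, genotype comparisons, right, fenofibrate within each genotype. Irgm1 loss lies between -2.06 and -1.05, Irgm_IFNAR-KO over Irgm1-KO between 0.98 and 2.41, and fenofibrate lies above 0 in Irgm1KO and below 0 in WT cells for all 7.

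Experiment 2 gave a second, separate measurement of Irgm1 loss. All 7 messages were lower in Irgm1KO_control than in WT_control cells, by 2.07-fold (mt-Nd6) to 3.09-fold (mt-Cytb), where 26.1% of 15429 genes were called lower. The median log2 fold change was -1.17, beside 0.00 over all genes.

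mt-Nd1 was at 552, 755, 722 and 536 CPM in Irgm1KO_control, against 1299, 1388, 1558 and 1494 CPM in WT_control (log2 fold change -1.16, SE 0.1, adjusted p = 8.28e-08). mt-Cytb was at 529, 759, 739 and 530 CPM, against 1857, 1819, 2060.2 and 2150.1 CPM (log2 fold change -1.63, SE 0.12, adjusted p = 1.74e-08). mt-Co1 was at 4622, 5316, 5141 and 4399.5 CPM in Irgm1KO_control, against 9628.5, 10350.3, 10860.4 and 10542 CPM in WT_control (log2 fold change -1.09, SE 0.0851, adjusted p = 2.95e-08). In these messages, replicates 2 and 3 of Irgm1KO_control were the higher pair, and still lay below every WT_control library. For all 7 messages the groups did not overlap, where 26.3% of genes tested had groups apart in that direction. mt-Nd6 was at 91.3, 110, 115 and 85.2 CPM in Irgm1KO_control and at 220, 205, 238 and 171 CPM in WT_control (log2 fold change -1.05, SE 0.146, adjusted p = 1.95e-05). As a share of library counts, the 7 messages came to 0.777 ± 0.099% in Irgm1KO_control and 1.73 ± 0.143% in WT_control.

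The size of the fall was compared between the experiments in a single fit of all 28 libraries. mt-Nd1 and mt-Nd2 differed, with the change 0.68 (SE 0.133, adjusted p = 0.00189) and 0.55 (SE 0.111, adjusted p = 0.00231) less negative on the log2 scale in experiment 2 than in experiment 1. These 2 of 7 stand beside 3.81% of 15114 genes called in that direction. The other 5 had differences between 0.03 and 0.45 that did not pass. That of mt-Cytb (0.45, adjusted p = 0.084) passed without Irgm1-KO replicate 1 (adjusted p = 0.0376), Irgm1KO_control replicate 1 (0.0357) or Irgm1KO_control replicate 4 (0.0466). The experiments were read at 100 and 50 cycles, and read length and experiment cannot be told apart.

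Fenofibrate moved the messages in opposite directions in the 2 genotypes. In Irgm1KO cells all 7 were higher with fenofibrate than without, by 1.75-fold (mt-Nd5) to 2.09-fold (mt-Nd1 and mt-Nd4), where 23.5% of genes were called higher. In WT cells 6 of 7 were lower with fenofibrate, where 16.9% of genes were called lower, and mt-Nd6 did not pass. The difference between the genotypes was itself tested as an interaction.

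In Irgm1KO_fenofibrate libraries mt-Nd1 was at 1279, 1428, 1362 and 1283 CPM, against 536 to 755 CPM in Irgm1KO_control (log2 fold change 1.06, SE 0.1, adjusted p = 3.73e-07). mt-Cytb was at 1209, 1310.5, 1251 and 1190.5 CPM, against 529 to 759 CPM (0.96, SE 0.118, adjusted p = 6.62e-06). mt-Co1 was at 8767, 7736, 9122 and 8740.3 CPM, against 4399.5 to 5316 CPM (0.82, SE 0.0846, adjusted p = 9.55e-07). No fenofibrate library overlapped a control library for any of the 7, where 20.7% of genes tested had groups apart in that direction. mt-Nd6 was at 216, 229, 203 and 186 CPM in Irgm1KO_fenofibrate, against 85.2 to 115 CPM in Irgm1KO_control (1.05, SE 0.146, adjusted p = 2.8e-05).

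In WT_fenofibrate libraries mt-Nd1 was at 1226, 1198, 1179 and 1072.5 CPM, against 1299 to 1558 CPM in WT_control (log2 fold change -0.30, SE 0.099, adjusted p = 0.0283). mt-Cytb was at 1242, 996, 1026 and 934 CPM, against 1819 to 2150.1 CPM (-0.91, SE 0.118, adjusted p = 2.93e-05). mt-Co1 was at 7906.5, 7161, 7670 and 6193.5 CPM in WT_fenofibrate, against 9628.5 to 10860.4 CPM in WT_control (-0.52, SE 0.0843, adjusted p = 0.00021). Replicate 4 was the lowest fenofibrate library for all 3. The groups did not overlap for 6 of the 7 messages, where 18% of genes tested had groups apart in that direction. mt-Nd6, at 211, 207, 194 and 129 CPM in WT_fenofibrate against 171 to 238 CPM in WT_control, overlapped and did not pass (-0.17, SE 0.145, adjusted p = 0.404). Scaling by library totals in place of TMM shifts the median gene of this WT comparison by 0.11 on the log2 scale. With that scaling mt-Nd1 (adjusted p = 0.185) and mt-Nd2 (adjusted p = 0.0848) no longer passed, and mt-Nd1 also lost its call without WT_control replicate 3 or 4 or WT_fenofibrate replicate 4 (adjusted p between 0.0662 and 0.0851).

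The interaction, the log2 response to fenofibrate in Irgm1KO minus that in WT, was above 0 for all 7 messages, where 14.9% of genes were called in that direction. It was 1.36 (SE 0.141) for mt-Nd1, 1.22 (SE 0.205) for mt-Nd6, 1.87 (SE 0.167) for mt-Cytb and 1.34 (SE 0.119) for mt-Co1, with adjusted p-values of 5.25e-06, 0.000424, 1.42e-06 and 1.34e-06. WT_control and Irgm1KO_control each enter this value and the comparisons above.

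With fenofibrate in both genotypes, the gap between them was small. mt-Nd4 (log2 fold change 0.31 in Irgm1KO_fenofibrate over WT_fenofibrate, SE 0.101, adjusted p = 0.0286) and mt-Co1 (0.25, SE 0.0841, adjusted p = 0.0316) were called higher, 2 of 7 where 18.1% of genes were. The 5 others lay between 0.17 and 0.29 and did not pass. Both calls were lost without WT_fenofibrate replicate 4, without Irgm1KO_fenofibrate replicate 3, with library totals as the scaling, or with Xist level in the model. The number called was 1 without WT_fenofibrate replicate 3 or any other Irgm1KO_fenofibrate library, and 4 without WT_fenofibrate replicate 1. Against WT_control, Irgm1KO_fenofibrate cells had lower mt-Nd4 (-0.40), mt-Nd5 (-0.64), mt-Cytb (-0.67) and mt-Co1 (-0.27), 4 of 7 where 22.5% of genes were called lower. mt-Nd1 (-0.10), mt-Nd2 (-0.12) and mt-Nd6 (0.00) did not pass. The call of mt-Co1 was lost with library totals as the scaling (adjusted p = 0.0767).

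Position along the heavy strand tracked the size of the difference from WT_control. In the WT response to fenofibrate, the log2 fold changes ran -0.30, -0.32, -0.52, -0.70, -0.92 and -0.91 in genome order from mt-Nd1 through mt-Nd2, mt-Co1, mt-Nd4 and mt-Nd5 to mt-Cytb. The rank correlation with genome order was -0.94 over these 6 messages, which share libraries and precursor. It was -1 for Irgm1KO_fenofibrate and -0.77 for Irgm1KO_control, each over WT_control, so the 3 comparisons share WT_control. In experiment 1 it was -0.03 for Irgm1-KO over WT, 0.66 for Irgm_IFNAR-KO over WT and 0.03 for Irgm_IFNAR-KO over Irgm1-KO. Irgm1KO_fenofibrate gave 0.54 over WT_fenofibrate and -0.43 over Irgm1KO_control. The trend along the strand was chosen after the values were seen and has no test.

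The same counts were also put as a ratio within each library, mt-Nd4, mt-Nd5 and mt-Cytb summed over mt-Nd1 and mt-Nd2. This restates the trend along the strand and is no separate support for it. The ratio was 1.50, 1.43, 1.46 and 1.48 in Irgm1KO_fenofibrate, 1.58, 1.58, 1.66 and 1.66 in Irgm1KO_control, 1.51, 1.42, 1.36 and 1.26 in WT_fenofibrate and 2.11, 2.16, 1.96 and 2.04 in WT_control. The 4 WT_control libraries lay above the other 12 of the experiment. In experiment 1 the groups overlapped, at 1.26 to 1.56 in Irgm_IFNAR-KO, 1.25 to 1.47 in Irgm1-KO and 1.26 to 1.49 in WT. A ratio inside a library does not depend on the library's scaling.

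**Figure D3:**
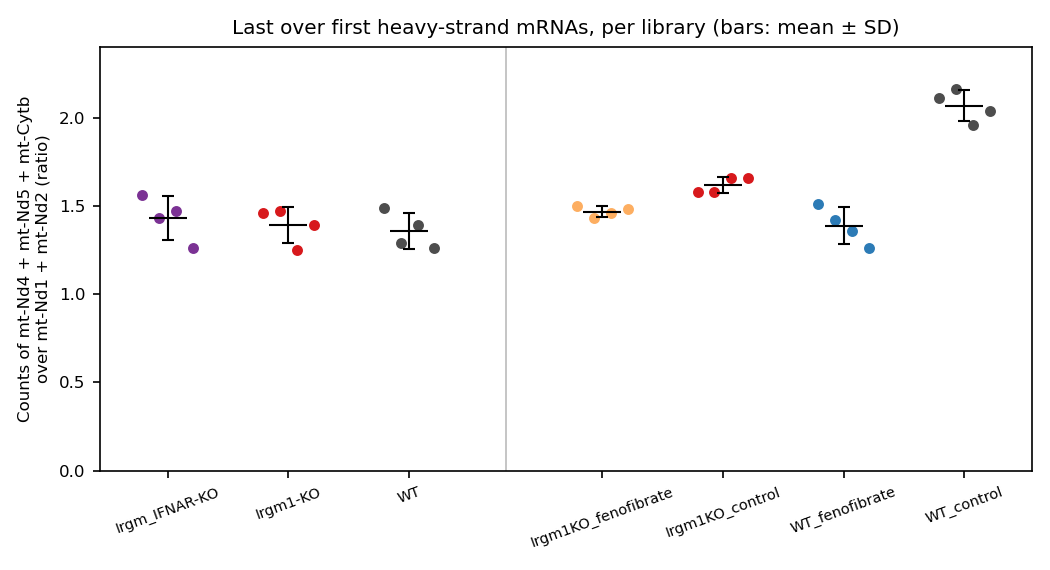
Ratio of the summed counts of mt-Nd4, mt-Nd5 and mt-Cytb to those of mt-Nd1 and mt-Nd2 (y axis, no unit) in every library, with group mean and SD (n = 4). WT_control averages 2.07 and stands apart from the other 3 groups of experiment 2, which average between 1.38 and 1.62.

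The share of mt-Co1 among the 7 messages was higher in Irgm1-KO than in WT and lower in Irgm_IFNAR-KO than in WT, as given above. In experiment 2 it was higher in every Irgm1KO_control library (60.9% to 64.4%) than in any WT_control library (57.4% to 57.9%). The share of mt-Cytb was 7.37% to 8.77% in Irgm1KO_control and 10.1% to 11.8% in WT_control, without overlap. Fenofibrate left mt-Cytb at 8.68 ± 0.578% in Irgm1KO and at 8.68 ± 0.572% in WT cells. mt-Co1 took 60.0 ± 2.45% of the messages' counts in Irgm1KO_fenofibrate and 59.8 ± 1.19% in WT_fenofibrate, and these overlapped.

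**Figure D4:**
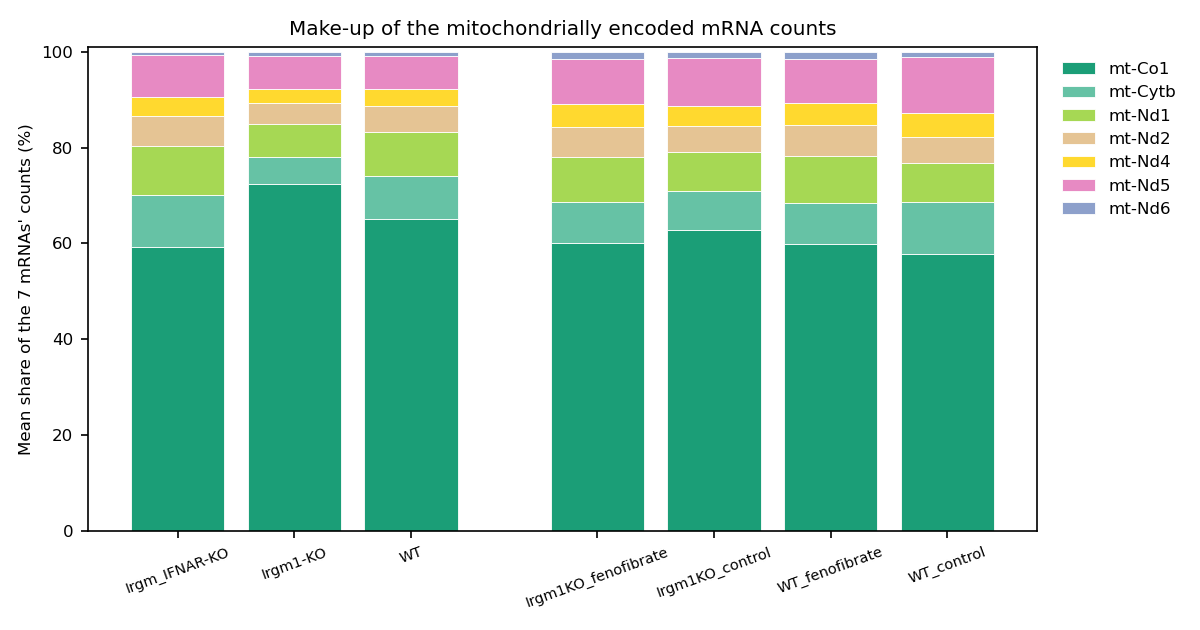
Mean share of each message in the summed counts of the 7 (stacked bars, %), by group. mt-Co1 takes the most in every group, between 57.7% (WT_control) and 72.3% (Irgm1-KO).

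The ribosomal RNAs of the same genome moved unequally beside the messages. mt-Rnr2, the large ribosomal RNA, was lower in Irgm1-KO than in WT (log2 fold change -1.23, adjusted p = 1.24e-05) and in Irgm1KO_control than in WT_control (-0.96, adjusted p = 2.31e-05). mt-Rnr1, the small one, was lower in experiment 1 (-0.64, adjusted p = 0.0116) and did not pass in experiment 2 (-0.08, adjusted p = 0.674). mt-Rnr2 was higher in Irgm_IFNAR-KO than in Irgm1-KO (1.33, adjusted p = 5.27e-06) and lower in WT_fenofibrate than in WT_control (-0.89, adjusted p = 0.000147), as the messages were, and mt-Rnr1 passed in neither (0.36 and -0.20). With fenofibrate in Irgm1KO cells, where all 7 messages rose, neither passed (mt-Rnr1 0.20, mt-Rnr2 0.29). The interaction passed for mt-Rnr2 (1.18, adjusted p = 0.000322) and not for mt-Rnr1 (0.40, adjusted p = 0.154). The libraries were made with a kit that captures mRNA, and its part in the ribosomal RNA counts was not tested.

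Few nuclear-encoded subunits of the same complexes were called in experiment 1. In Irgm1-KO over WT, where 19.8% of genes were called higher and 20.7% lower, 1 of 36 tested complex I subunits was called higher and 1 lower, with a median log2 fold change of -0.07. Ndufb11 was the lower one (-0.94, adjusted p = 0.00954) and Ndufab1 the higher one (0.51, adjusted p = 0.00105). In edgeR's test 0 of 9 complex III subunits (median 0.00) and 0 of 11 complex IV subunits (median -0.23) were called, with 1 and 2 lower at an unadjusted p below 0.05, and 1 of 15 in complex V was lower (Atp5g2, -0.58; median -0.16). In Irgm_IFNAR-KO over Irgm1-KO, where 21.5% of genes were called higher and 21.3% lower, 3 of 36, 1 of 9, 1 of 11 and 1 of 15 subunits of complexes I, III, IV and V were higher and 0 lower, with medians of 0.15, 0.17, 0.31 and 0.27. In Irgm1KO_control over WT_control, where 27.3% of genes were called higher and 26.1% lower, the counts were 19 higher and 3 lower of 36 in complex I, 5 and 1 of 9 in complex III, 5 and 2 of 11 in complex IV, and 5 and 1 of 15 in complex V. Complex II, which has no mitochondrially encoded subunit, had 3 of 4 higher. The joint fit called none of the complex I, III, IV or V subunits for a difference in this effect between the experiments. The counts were 0 of 36, 0 of 9, 0 of 11 and 0 of 15, where 3.81% of genes were called higher. Their median differences were 0.28, 0.3, 0.33 and 0.33, beside 0.03 over all genes. Spread was larger in experiment 1 (biological coefficient of variation 0.172) than in experiment 2 (0.12). Uqcrh of complex III and Cox7b of complex IV were lower in experiment 2, at -0.60 and -0.39. In Irgm1KO_fenofibrate over Irgm1KO_control, where the messages were higher, the counts were 15 higher and 2 lower of 36 in complex I, 5 and 0 of 9 in complex III, 6 and 0 of 11 in complex IV, and 7 and 1 of 15 in complex V. The shares over all genes were 23.5% higher and 22.2% lower, and the list medians of 0.13, 0.16, 0.21 and 0.13 stand beside 1.05 for the messages. In WT_fenofibrate over WT_control, where 18.1% of genes were called higher and 16.9% lower, the counts were 7 and 2, 2 and 1, 0 and 1, and 0 and 2.

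Genes that act on mitochondrial RNA were counted in the same way. Among 18 tested genes of mitochondrial RNA processing, stability and decay, 9 were called higher and 0 lower in Irgm1-KO over WT, where 19.8% of all genes were higher, and 13 higher and 0 lower in Irgm1KO_control over WT_control, where 27.3% were. Pnpt1, polynucleotide phosphorylase, an exoribonuclease of mitochondria, averaged 93.2 ± 12.6 CPM in Irgm1-KO and 40.6 ± 6.9 CPM in WT (log2 fold change 1.20, SE 0.139, adjusted p = 2.66e-05). It averaged 30.8 ± 3.47 CPM in Irgm_IFNAR-KO (-1.60 against Irgm1-KO, adjusted p = 2.13e-06). In experiment 2 it stood at 39.7 ± 2.89 CPM in Irgm1KO_fenofibrate, 72.4 ± 4.2 CPM in Irgm1KO_control, 31.4 ± 1.45 CPM in WT_fenofibrate and 32.9 ± 1.76 CPM in WT_control. Within each experiment Pnpt1 was highest in the group where the 7 messages were lowest. Between WT_fenofibrate and WT_control, where 6 of 7 messages were called lower, it averaged 31.4 and 32.9 CPM. A link between Pnpt1 and the messages was not tested. Fastk and Tbrg4, both of the FASTK family of mitochondrial RNA-binding proteins, were also higher in Irgm1-KO (0.54 and 0.73).

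Of 13 tested genes of mitochondrial DNA transcription and replication, 3 were higher and 3 lower in Irgm1-KO over WT, close to the 19.8% and 20.7% over all genes. The list median was 0.18, with a range from -1.18 to 0.45. In Irgm1KO_control over WT_control 4 were higher and 3 lower, where 27.3% and 26.1% of genes were. The 3 lower genes of experiment 1 are named next. Polg2, the accessory subunit of the mitochondrial DNA polymerase, was at 1.47 ± 0.295 CPM in Irgm1-KO and 3.34 ± 0.473 CPM in WT (-1.18, adjusted p = 6.52e-05). Tfb2m, the transcription factor that opens mitochondrial promoters, was lower in Irgm1-KO (-0.54, adjusted p = 0.00248) and Polg, the catalytic polymerase subunit, by -0.35 (adjusted p = 0.0186). These 3 were also lower in Irgm1KO_control than in WT_control and higher in Irgm_IFNAR-KO than in Irgm1-KO. Tfam, which packages mitochondrial DNA, did not pass in experiment 1 (0.27, adjusted p = 0.294) and was higher in experiment 2 (0.40, adjusted p = 1.27e-05).

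Of 15 tested genes of mitochondrial membranes and matrix, 5 were higher and 0 lower in Irgm1-KO over WT, and 11 higher and 1 lower in Irgm1KO_control over WT_control. The shares over all genes were 19.8% higher and 20.7% lower in experiment 1, and 27.3% higher and 26.1% lower in experiment 2, also for the lists that follow. The matrix chaperone Hspa9 was at 384 ± 22.7 CPM in Irgm1-KO and 161 ± 9.1 CPM in WT (1.26, adjusted p = 5.45e-08). The mitochondrial ribosomal proteins build the ribosome that translates these messages. Of them, 9 of 77 were higher and 1 lower in experiment 1, and 60 of 78 higher and 2 lower in experiment 2. The joint fit called 0 of 77 ribosomal proteins and 0 of 15 membrane and matrix genes for a difference between the experiments. Of 5 biogenesis regulators tested, 3 were higher and 1 lower in Irgm1-KO over WT. The lists were measured in the same libraries as the messages.

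**Figure D5:**
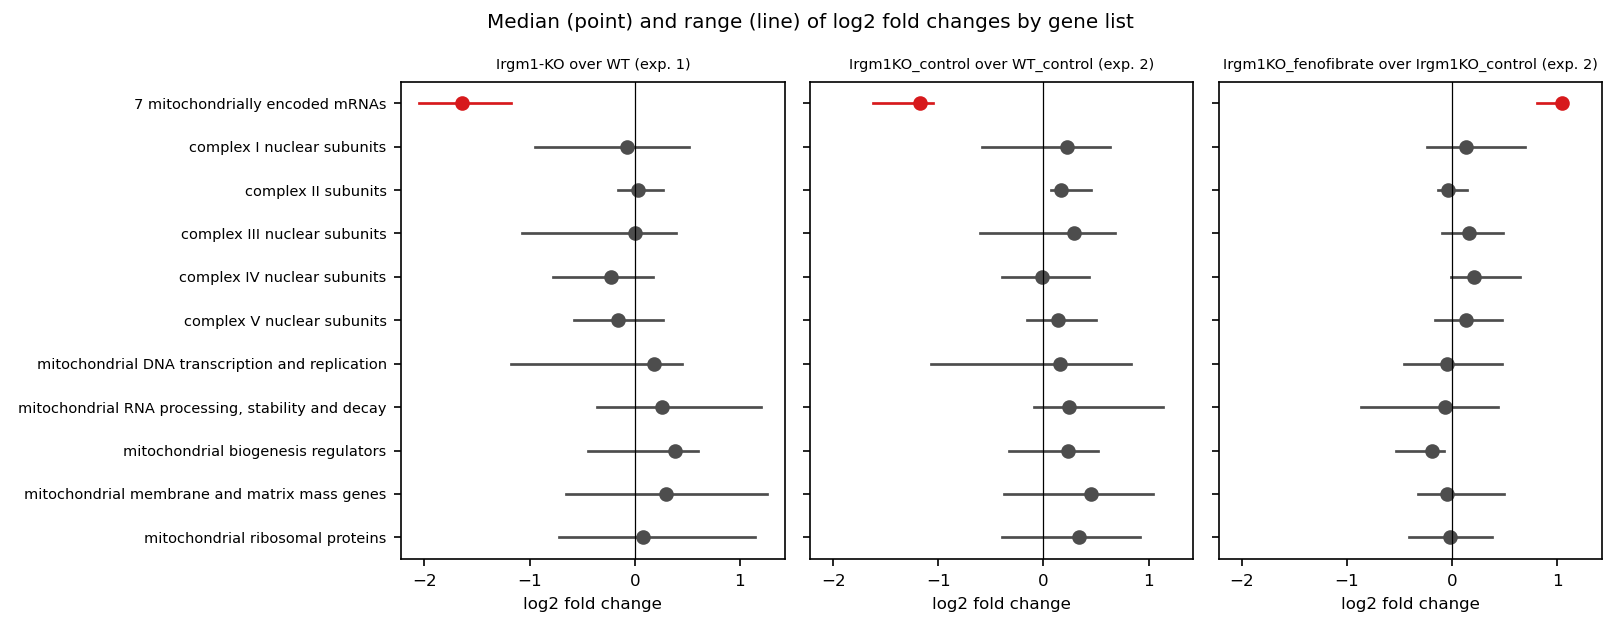
Median (point) and range (line) of log2 fold changes for the 7 messages and for 10 lists of nuclear genes, in Irgm1-KO over WT, Irgm1KO_control over WT_control and Irgm1KO_fenofibrate over Irgm1KO_control. The messages' medians of -1.65, -1.17 and 1.05 lie beyond those of every list shown.

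Across the 28 libraries, with each experiment centred on its mean, the genes whose log2 level was most like the mean of the 7 messages among 11547 included Cyb5b (r = 0.976), Itga1 (0.973), Nxpe5 (0.969) and St3gal3 (0.967). The most opposite were Coch (r = -0.975), Plcl2 (-0.973) and Anxa4 (-0.970). These are descriptions over libraries that share groups, and 20.7% of genes were lower in Irgm1-KO as the messages were. Cyb5b, cytochrome b5 of the mitochondrial outer membrane, was at 72.7 to 75.8 CPM in Irgm1-KO and 114 to 115 CPM in WT, with a fold change of -0.62 on the log2 scale (SE 0.0549, adjusted p = 2.75e-06).

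Levels of cell type markers differed between the same groups. The summed level of the 10 macrophage markers was 30767 to 42388 CPM in Irgm_IFNAR-KO, 10967 to 16667 CPM in Irgm1-KO and 23039 to 43589 CPM in WT, and Lyz2, lysozyme, alone averaged 5555 CPM in Irgm1-KO and 23180.2 CPM in WT. In experiment 2 the sum was 15928 to 19506 CPM in Irgm1KO_fenofibrate, 11664 to 14136 CPM in Irgm1KO_control, 14739 to 23829 CPM in WT_fenofibrate and 23596 to 32744 CPM in WT_control. Of the 10 markers, 1 was called higher and 3 lower in Irgm1-KO over WT (19.8% and 20.7% of all genes), and 4 higher and 3 lower in Irgm_IFNAR-KO over Irgm1-KO (21.5% and 21.3%). In experiment 2, 1 was higher and 6 lower in Irgm1KO_control over WT_control (27.3% and 26.1%), 2 higher and 4 lower in Irgm1KO_fenofibrate over Irgm1KO_control (23.5% and 22.2%), and 1 higher and 6 lower in WT_fenofibrate over WT_control (18.1% and 16.9%). Most of the difference in the summed level between Irgm1-KO and WT came from Lyz2. Csf1r, the receptor for macrophage growth factor, averaged 2090 CPM in Irgm1-KO and 2362 CPM in WT. Mertk averaged 262 CPM in Irgm1-KO and 149 CPM in WT, Fcgr1 1356 and 1160 CPM, and Cd68 977 and 947 CPM. The rest of the 10 macrophage markers averaged lower in Irgm1-KO. Neutrophil markers summed to 5.14 to 9.37 CPM in Irgm1-KO and 15 to 38.6 CPM in WT. Ly6g and Retnlg were at 0 or had no row in all 3 groups of experiment 1. T cell markers went the other way, at 0.721 to 1.52 CPM in Irgm1-KO and 0.204 to 0.717 CPM in WT, with 1 of 1 tested called higher. Dendritic cell markers summed to 3.03 to 4.19 CPM in Irgm1-KO and 2.39 to 3.39 CPM in WT, with 1 of 2 tested called higher. Fibroblast and mast cell markers had 0 of 1 tested called each. Of the B cell markers, Ighm was at 24.3 to 44.3 CPM in Irgm1-KO and 168 to 211 CPM in WT, and Cd79a and Ms4a1 had no row there. Their part in the results was not tested.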

How the data were processed

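Both deposited tables, 1 for each experiment, hold unnormalized counts of reads for Ensembl genes. The submitters' processing notes list STAR, fastp, DESeq2 and build GRCm39. Roles, versions, the counting tool, use of strand and treatment of reads with several matches: not given in the sources used here. Without strand, reads of mt-Nd6 and reads of heavy-strand RNA across the same bases cannot be told apart, so the mt-Nd6 counts may hold both. The first table holds 15423 genes, each reaching 10 counts in some library, and the second 56941, of which 26301 are zero throughout.

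The tests used edgeR 4.0.16 under R 4.3.3 (quasi-likelihood test, robust fit, TMM scaling, filterByExpr with minimum count 10 and minimum total 15), all groups of an experiment in 1 fit. This left 13998 and 15429 genes, and 15114 in the joint fit. P-values were adjusted by Benjamini-Hochberg over all tested genes, with a threshold of 0.05. The SE is the log2 fold change over the square root of F. CPM is per M counts of the TMM-scaled library, and intervals are SD over 4 libraries. Fits were tested on simulated data. Alternatives were RLE scaling, library totals, no filter, DESeq2 1.42.0, log2 Xist as a covariate, totals without the largest gene, the replicate block and leaving out each library. Named are the members, with every-library values for 1 per role, Irgm1 and Ifnar1, up to 3 genes per list with the smallest p in either Irgm1 comparison, and the genes most like the members; a gene that this rule names and a marker are not reported here. Members and lists were chosen with earlier results of these data known. Symbols were found for 99.6% and 91.2% of IDs.

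Replicate numbers were checked for pairing. Same-numbered control and fenofibrate libraries deviated together (WT r 0.38 to 0.488, Irgm1KO r 0.261 to 0.371), so there the numbers pair the libraries. Between other groups the numbers did not pair the libraries. In experiment 1, libraries with unlike numbers could still deviate together or oppositely. For WT with Irgm1-KO, r ran from -0.676 to 0.724 over unlike numbers and from -0.479 to 0.519 over like ones. What these libraries share is not given, and the main fit does not model it.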

Additional observations from a re-analysis of the deposited data

Results flagged for a closer look

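A library stood apart from the other 3 of its group in 3 of 56 groups of values examined, where chance gives about 1 in 20. mt-Nd1 was at 1469.2 CPM in Irgm_IFNAR-KO replicate 4, above the 3 others at 1364 to 1376 CPM. mt-Nd2 was at 232 CPM in Irgm1-KO replicate 1, the highest of a group whose lowest was 200 CPM. The 7 messages took 0.439% of counts in Irgm1-KO replicate 2, the lowest of its group. Without Irgm1-KO replicate 1 or 2, all 7 messages stayed called in Irgm1-KO over WT. Without Irgm_IFNAR-KO replicate 4, mt-Nd1 lost its call in Irgm_IFNAR-KO over WT (log2 fold change 0.25, adjusted p = 0.103, edgeR).

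The response to fenofibrate differed between genotypes by the interaction test for mt-Nd1 (1.36), mt-Nd2 (1.36), mt-Co1 (1.34), mt-Nd4 (1.77), mt-Nd5 (1.73), mt-Nd6 (1.22) and mt-Cytb (1.87), as log2 values. The effect of Irgm1 loss differed between the experiments for mt-Nd1 (0.68) and mt-Nd2 (0.55), also as log2 values.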

How the results depend on the processing

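In Irgm1-KO over WT, Irgm_IFNAR-KO over Irgm1-KO, Irgm1KO_control over WT_control, Irgm1KO_fenofibrate over Irgm1KO_control and the interaction, all 7 messages kept direction and call under every alternative run: RLE or library totals in place of TMM, no filter, DESeq2, log2 Xist as a covariate, library sizes without the largest gene, the replicate block, and leaving out each library.

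For Irgm_IFNAR-KO over WT, messages called higher numbered 3, 5 with the Xist covariate (4258 genes called, against 1702) and 0 to 4 leaving out each library; mt-Co1 turned to 0.024 with library totals. With the replicate block mt-Nd1 lost its call (adjusted p = 0.0831) and mt-Nd5 gained one (0.0477); these numbers do not pair the libraries. For Irgm1KO_fenofibrate over WT_fenofibrate, the 2 calls became 0 with library totals, 1 without a filter, 0 with the Xist covariate and 0 to 4 leaving out each library; mt-Nd5 was also called with the replicate block (0.0244) and with DESeq2 (0.04). DESeq2 also called mt-Nd4 in Irgm_IFNAR-KO over WT (0.0368). In the paired fenofibrate comparisons the block changed no call.

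For Irgm1KO_fenofibrate over WT_control, mt-Nd6 (0.00) turned to -0.017 with RLE and with DESeq2, -0.012 without a filter, -0.044 with the Xist covariate, -0.004 without the largest gene, and -0.084 to 0.052 leaving out each library. The difference between experiments for mt-Nd5 ran from -0.14 to 0.13 leaving out each library, and genes called in it ran from 712 to 1829 (945 with all libraries; 1488 without WT replicate 1, 1829 without Irgm1-KO replicate 3). Without the largest gene in the total, the share of library counts was 0.501% in Irgm1-KO and 1.34% in WT. The causes were not tested.

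The listed messages with nearly no unshared windows have no usable counts at any depth here, and 4 libraries per group limit small differences. Outside the list, mt-Nd3 was at 0 CPM in every group of experiment 2. There mt-Nd4l reached at most 0.00914 CPM (WT_fenofibrate) and mt-Atp8 at most 0.0209 CPM (Irgm1KO_fenofibrate). Shared windows were not counted for them.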
